A study of Mus musculus with 4 samples.

Results

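The slow-fiber contractile and calcium-handling genes were examined in muscle of young and old mice. The set held 10 genes chosen by symbol, of which 7 are contractile (Myh7, Tnnt1, Myl2, Tnnc1, Tnni1, Tpm3 and Myh7b) and 3 handle calcium (Atp2a2, Casq2 and Pln). All 10 were found among the 20340 gene labels that had a value in all 4 samples, each as 1 row under its own symbol. They were chosen with the difference between ages in these data already known, so that difference is given as a description, and the calls of a test on it are printed only as counts from which nothing is read. The study sequenced mRNA from tibialis anterior (TA) muscle, a fast muscle of the shin, from untreated wild-type C57BL/6 mice. Old mice were 20 months of age and Young mice were 3 months of age, with 2 samples at each age (Old 1 and Old 2, Young 1 and Young 2). The labels give the tissue as muscle, and the name TA comes from the methods of the study, which also state that the sex of the mice was chosen at random. The design text speaks of triplicates, but 2 samples per age were available here, and the labels do not say whether these came from separate mice.

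Muscle fibers contract slowly or fast depending on which version of each sarcomere protein they make. Slow (type I) fibers use their own myosin heavy chain, regulatory light chain, troponin subunits and tropomyosin. They return calcium to the sarcoplasmic reticulum with a different pump (SERCA2, encoded by Atp2a2) than fast fibers. They also store it on the calsequestrin of the heart (Casq2), beside Casq1. Most of these slow forms are also the forms of the heart, while the mouse TA is built almost wholly of fast fibers.

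Values are FPKM, sequenced fragments scaled by transcript length and by the fragments mapped in the sample. FPKM holds no counts, so the depth behind each value is unknown and counting error could not be stated. Old 1 and Young 2 stood apart from Old 2 and Young 1 at nearly all levels: across genes that reached 1 FPKM everywhere, the median was 13.7 and 13.8 FPKM in the former and 6.36 and 6.42 FPKM in the latter. The factor varied with level: Old 1 exceeded Old 2 by a median of 1.42 on the log2 scale for genes of 1 to 3 FPKM, 0.97 for those of 30 to 100 FPKM and 1.81 for those of 1000 to 10000 FPKM, and Young 2 exceeded Young 1 by 1.39, 0.96 and 1.49. Each sample is therefore given on its own, and the ages are set side by side in 2 crossed pairs (Old 1 to Young 2, Old 2 to Young 1), a pairing chosen from the data. Abundant muscle genes could be listed at 0: Ckm, the muscle creatine kinase, was at 0 in all 4 samples, Neb in 2 and Ttn in 2. A value of 0 is therefore reported only as listed at 0.

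The slow contractile genes were far higher in old muscle, and the calcium-handling genes were split. Of the 7 contractile genes, 6 had higher values in Old 1 and Old 2 than in either young sample, with Myh7b as the exception. Atp2a2 went with the contractile genes, Casq2 was nearly level between ages, and Pln had low values that did not separate the ages. Separation of this kind, with no overlap and the old samples above, was met by 7 of the 10 genes and by 1.61% of the 10266 genes tested. The median log2 fold change was 3.65 over the 7 contractile genes and 0.09 over the 3 calcium-handling genes, against -0.01 over all tested genes. The contractile median exceeded the calcium-handling median by 3.56, and by 3.28 to 3.77 when each sample was left out in turn. Without Myh7b and Pln, which were listed at 0 in Old 2 and Young 1, the medians differed by 2.37. Whole muscle was measured, so a larger number of slow fibers and more slow-fiber RNA per fiber cannot be told apart.

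**Figure D1:**
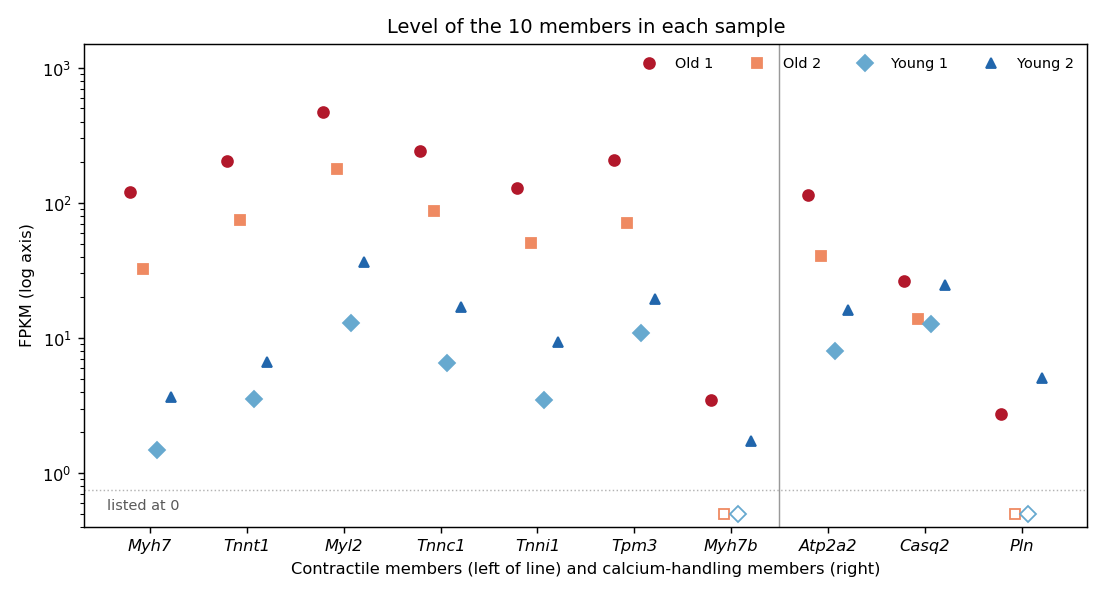
FPKM of each gene on a log axis, with 1 symbol per sample and open symbols below the dotted line for values listed at 0. The red and orange symbols of the old samples lie above the blue symbols for Myh7, Tnnt1, Myl2, Tnnc1, Tnni1, Tpm3 and Atp2a2, while those of Casq2 interleave between 12.8 and 26.3 FPKM.

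Myh7 encodes the slow myosin heavy chain, the motor of type I fibers, which the heart can also make. Its locus lies on chromosome 14 from 54968787 to 54994549 (mm10, minus strand). Myh7 reached 119 FPKM in Old 1 and 32.3 FPKM in Old 2, whereas Young 1 held 1.48 FPKM and Young 2 held 3.66 FPKM. The old values did not overlap the young ones, and the lower old value was 8.82 times the higher young value. Old 1 exceeded Young 2 by a ratio of 32.7, and Old 2 exceeded Young 1 by a ratio of 21.8. The fold change was 4.22 in log2(FPKM + 1), a scale on which low genes appear to change less than they did.

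Part of the Myh7 locus is shared with a noncoding RNA. D830015G02Rik, now named Mhrt, is a long noncoding RNA known to run antisense to Myh7 in the heart, and its RefSeq span overlaps the Myh7 gene over 3666 bases. It was listed at 89.6 FPKM in Old 1, at 0 in Old 2 and Young 1, and at 4.03 FPKM in Young 2. The methods name a stranded library kit, but whether strand was used in counting is not given in the sources used here. Both values are therefore uncertain where the genes overlap.

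Myl2, the slow and ventricular regulatory light chain, sits on the neck of the same myosin. It was the highest of the 10 genes in every sample, with 473 FPKM in Old 1, 177 FPKM in Old 2, 12.9 FPKM in Young 1 and 36.4 FPKM in Young 2. Its groups did not overlap, and the ratios in the crossed pairs were 13.02 and 13.7. The locus spans 122100980 to 122106854 on chromosome 5 (mm10).

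The 3 slow troponin subunits were all higher in old muscle. Tnnc1, the calcium-binding subunit shared with the heart (chromosome 14, 31208312 to 31211711), had 240 FPKM in Old 1, 87.1 FPKM in Old 2, 6.51 FPKM in Young 1 and 17.0 FPKM in Young 2. Tnni1, the inhibitory subunit of slow fibers (chromosome 1, 135799421 to 135810989), had 130 FPKM, 50.4 FPKM, 3.48 FPKM and 9.33 FPKM in the same order. For both genes the crossed pairs gave ratios between 13.4 and 14.5. Tnnt1, the subunit that anchors the slow troponin complex to tropomyosin (chromosome 7, 4504663 to 4515975, minus strand), had 204 FPKM in Old 1, 74.4 FPKM in Old 2, 3.56 FPKM in Young 1 and 6.67 FPKM in Young 2. Its ratios of 30.6 and 20.9 were close to those of Myh7 and above those of the other troponin subunits.

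Tpm3 encodes the slow alpha-tropomyosin of the thin filament, and shorter products of the same gene are made in many other cells. The files give 1 value for all its isoforms (chromosome 3, 90072572 to 90100902). Tpm3 had 209 FPKM in Old 1, 71.4 FPKM in Old 2, 10.8 FPKM in Young 1 and 19.3 FPKM in Young 2, without overlap between ages. The ratios of 10.8 and 6.61 were the lowest of the 6 contractile genes that separated the ages.

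Myh7b, an ancient relative of Myh7 whose transcript yields little protein in most striated muscle, was near the bottom of the set. It had 3.45 FPKM in Old 1 and 1.71 FPKM in Young 2 and was listed at 0 in Old 2 and Young 1. The zeros fell in 1 sample of each age, and no direction is read from this gene. Its deposited locus, on chromosome 2 from 155611212 to 155692384, also holds Trpc4ap on the other strand, which overlaps the annotated end of Myh7b by 37 bases and had 67.8 FPKM, 33.8 FPKM, 33.0 FPKM and 65.1 FPKM in Old 1, Old 2, Young 1 and Young 2.

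The slow genes are of interest for regulation because 2 of them carry a microRNA in an intron. Mir208b lies within Myh7 and Mir499 within Myh7b, and Mir208a lies within the neighboring heart gene Myh6. These microRNAs are known to repress inhibitors of the slow program. Their mature sequences (RefSeq, GRCm38.p6) are shown with bases 2 to 8, the seed that pairs with targets, in capitals.
miR-208b-3p, within Myh7: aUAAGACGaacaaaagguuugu
miR-208a-3p, within Myh6: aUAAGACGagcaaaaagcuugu
miR-499-5p, within Myh7b: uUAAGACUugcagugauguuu
The seed of miR-208b-3p is the same as that of miR-208a-3p, and the seed of miR-499-5p differs from it in the last base. Mir208b and Mir499 were listed at 0 in all 4 samples, including Old 1, where the host gene Myh7 was at 119 FPKM. The libraries were made for mRNA, so mature microRNAs were not measured.

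Among the calcium-handling genes, Atp2a2 encodes SERCA2, the pump that refills the sarcoplasmic reticulum of slow fibers and of the heart and that other cells also make at low levels. It had 115 FPKM in Old 1, 40.6 FPKM in Old 2, 7.98 FPKM in Young 1 and 16.0 FPKM in Young 2 (chromosome 5, 122453513 to 122502225, minus strand). The lower old value was 2.54 times the higher young value, and the crossed pairs gave 7.20 and 5.08. These ratios were below those of the 6 contractile genes in both pairs.

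Casq2, a calsequestrin of slow fibers and heart, buffers calcium inside the reticulum. It had 26.3 FPKM in Old 1, 13.7 FPKM in Old 2, 12.8 FPKM in Young 1 and 24.8 FPKM in Young 2 (chromosome 3, 102086440 to 102147153). The ages overlapped, and the ratios of 1.06 and 1.07 in the crossed pairs were near 1. In the young samples Casq2 ranked 2 among the 10 genes, and in the old samples it ranked 8. The ratio of Atp2a2 to Casq2 within a sample, from which a factor common to both genes cancels, was 4.38 in Old 1 and 2.96 in Old 2, against 0.625 in Young 1 and 0.643 in Young 2.

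Pln encodes phospholamban, the small inhibitor of SERCA2. It had 2.75 FPKM in Old 1 and 5.02 FPKM in Young 2 and was listed at 0 in Old 2 and Young 1. The ratio of Old 1 to Young 2 was 0.548, and the other pair gave none. Pln lies inside Cep85l, a gene on the opposite strand listed under its older name Gm9766, whose values were 8.94 FPKM in Old 1, 4.55 FPKM in Old 2, 10.3 FPKM in Young 1 and 19.4 FPKM in Young 2. Reads of Pln and of its host gene may therefore not be separated, which was not tested.

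**Figure D2:**
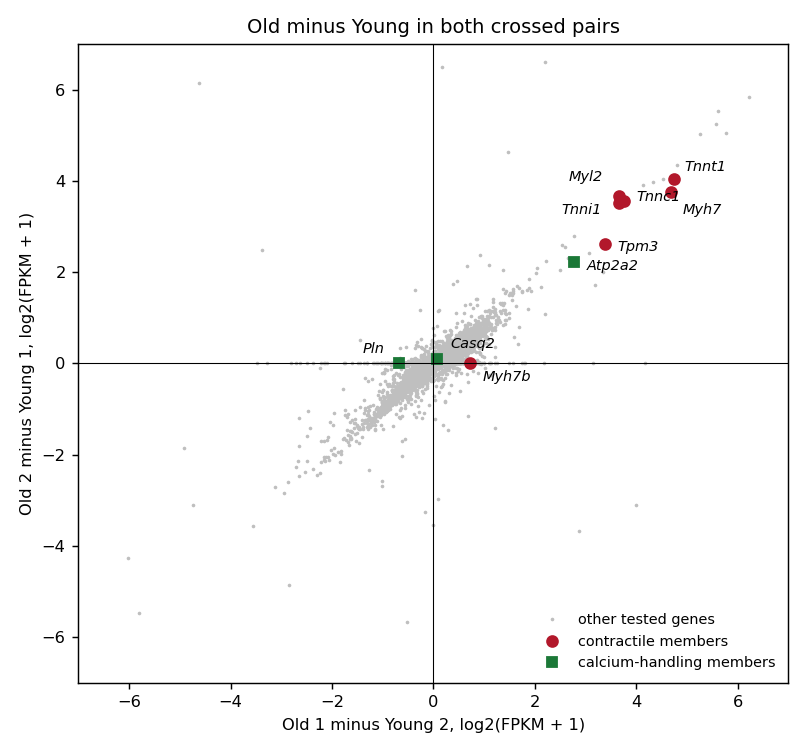
Difference in log2(FPKM + 1) between Old 1 and Young 2 (horizontal) and between Old 2 and Young 1 (vertical) for the tested genes, of which 13 lie outside the axes. The red contractile genes other than Myh7b and the green Atp2a2 lie at the upper right, beyond 2 in both pairs, and Casq2 lies near the origin.

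Of the 10 genes, 7 were among the highest differences in the whole table. Ranked by the difference in log2(FPKM + 1) over 10266 genes, the 6 contractile genes took ranks from 10 to 20 in Old 1 against Young 2 and from 15 to 24 in Old 2 against Young 1. Atp2a2 took ranks 26 and 32, and Casq2 took ranks 4075 and 3373. Myh7b took ranks 466 and 4593, and Pln took ranks 9700 and 4593. A difference of 2 or more in both pairs was reached by the same 7 genes as higher and by 0.273% of the tested genes, and by 0 of the 10 as lower (background 0.282%). With limma on the values as deposited, 5 of the 10 genes (Myh7, Tnnt1, Myl2, Tnnc1 and Tnni1) were past an adjusted p of 0.05 as higher in Old, against 0.175% of the tested genes. After each sample was scaled to the same median, 7 were past it as higher (background 5.06%) and 0 as lower (background 7.51%). Without any of Old 1, Old 2, Young 1 or Young 2, 0 of the 10 were past it on the values as deposited. These counts restate the contrast by which the genes were chosen and carry no weight of their own. All 10 genes passed the filter on low values, Myh7b and Pln through Old 1 and Young 2.

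Among 7228 genes with at least 1 FPKM in all 4 samples, 16 were at least 4-fold higher in both crossed pairs, and 7 of these were slow-fiber genes. The other 9 were Egr1, Fbxo32, Fos, the joined locus of Hba-a1 and Hba-a2, Hoxd8, Mib1, Ostn, Pla2g7 and Zmynd17. Ostn, which encodes the secreted muscle peptide osteocrin, had 273 FPKM in Old 1, 91.2 FPKM in Old 2, 1.44 FPKM in Young 1 and 4.75 FPKM in Young 2. Its ratios of 57.4 and 63.5 exceeded those of Myh7.

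The 6 contractile genes kept much of their composition across ages. Their FPKM summed to 1376 (Old 1) and 492 (Old 2) in old muscle and to 38.7 (Young 1) and 92.3 (Young 2) in young muscle. Within that sum, Tnnc1 took between 16.8% and 18.4% in the 4 samples, Tnni1 between 8.99% and 10.2% and Myl2 between 33.3% and 39.4%. Myh7 took 8.68% in Old 1 and 6.56% in Old 2, against 3.81% in Young 1 and 3.96% in Young 2. Tnnt1 was likewise a larger part in the old samples, with 14.8% and 15.1% against 9.18% and 7.23%. Tpm3 was a smaller part, with 15.2% in Old 1 and 14.5% in Old 2 against 27.9% in Young 1 and 20.9% in Young 2.

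Each slow gene was also set against its fast form within the same sample. FPKM is per transcript length, so levels of different genes can be set side by side. Most fast forms exceed 1000 FPKM in at least 1 sample, where samples of 1 age differed most, so a share also moves with the sample: Tnnc2 was at 35474 FPKM in Old 1 but at 3469 FPKM in Old 2. How much of each share this sets was not tested. Myh7 made up 33.6% of Myh7 plus Myh2 in Old 1 and 25.3% in Old 2, against 1.49% in Young 1 and 1.90% in Young 2. Myh2 itself, the heavy chain of oxidative fast fibers, had 236 FPKM, 95.4 FPKM, 98.0 FPKM and 189 FPKM in Old 1, Old 2, Young 1 and Young 2, close to level within the crossed pairs. Against Myh1, a more abundant fast heavy chain in old muscle (1318 FPKM in Old 1 and 156 FPKM in Old 2), Myh7 made up 8.31% and 17.1% of the pair. Myh1 was listed at 0 in both young samples, so that share has no young counterpart.

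The troponin, light chain and tropomyosin pairs had smaller shares of the slow form than Myh7 had beside Myh2. The partners differ in level: in Old 1, Myh2 was at 236 FPKM and Tnnc2 at 35474 FPKM. Shares are therefore read between ages within a pair and not between pairs. Tnnc1 was 0.673% of Tnnc1 plus Tnnc2 in Old 1 and 2.45% in Old 2, against 0.141% in Young 1 and 0.0762% in Young 2. The fast forms therefore remained by far the larger part of troponin C in every sample. Tnni1 was 0.597% and 1.29% of its pair with Tnni2 in the old samples, against 0.106% and 0.0808% in Young 1 and Young 2. Myl2 was 2.07% and 4.08% of its pair with Mylpf in the old samples, against 0.280% and 0.159%. Tpm3 was 6.56% and 7.96% of its pair with Tpm2, against 1.000% and 0.517%. In each of these pairs the old samples lay above the young ones without overlap.

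Casq2 differed from this pattern beside Casq1, which is not confined to fast fibers. Its share of Casq2 plus Casq1 was 0.951% and 1.58% in Old 1 and Old 2 and 1.40% and 0.876% in Young 1 and Young 2, so the ages overlapped. The Old share was 1.09 and 1.13 times the Young share in the crossed pairs, against 7.38 to 17.7 times for the contractile pairs. Tnnt1 was 0.0796% of Tnnt1 plus Tnnt3 in Young 1 and 0.0888% in Young 2, and no old share was formed because Old 1 and Old 2 listed Tnnt3 at 0. Myh4 was listed at 0 in all 4 samples. The fast pump Atp2a1 lies beyond the last chromosome 7 locus held for Old 1 and Young 2 and was listed at 0 in Old 2 and Young 1.

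**Figure D3:**
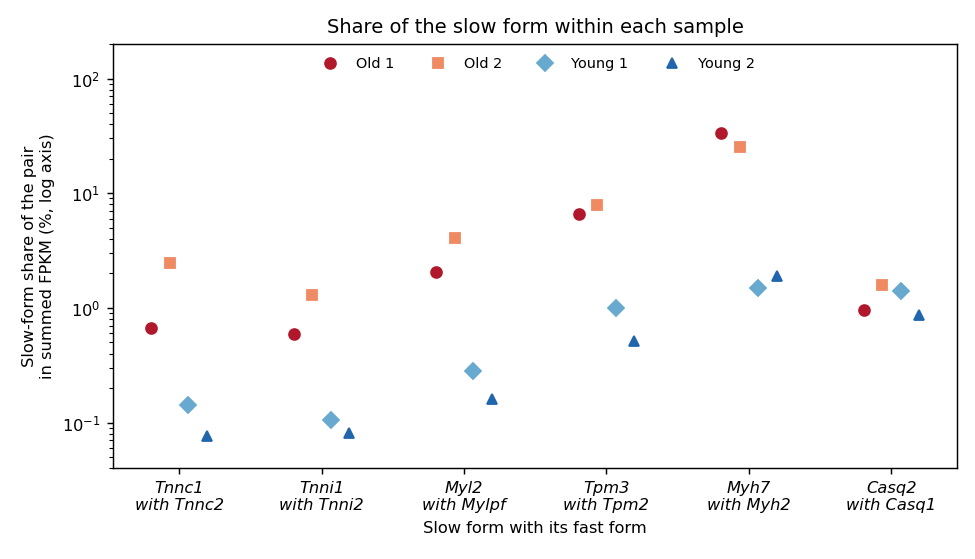
Share of the slow form in the summed FPKM of a slow form and its partner gene, in percent on a log axis, for each sample. Levels of the partner gene differ between pairs, so shares are not compared across pairs. The old samples lie above the young samples in the 5 contractile pairs, from 33.6% against 1.90% for Myh7 with Myh2 down to 0.597% against 0.106% for Tnni1 with Tnni2, and the samples interleave for Casq2 with Casq1.

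Other listed genes linked to slow fibers, where they had a value, did not follow the members. Of 13 such genes on a list written for this comparison, 11 had a value, 0 were at least 1 higher in log2(FPKM + 1) in both crossed pairs (background 0.857%), and 2 were at least 1 lower (background 1.58%). By limma 0 of the 11 were past the threshold as higher (background 0.175%) or lower (background 0.127%). At an unadjusted p under 0.05 there were 0, against 35 higher and 42 lower of the 10266 tested genes. Such limma counts of 0 are near the background, so nothing is read from them. After median scaling 3 were past it as lower (Actn2, Ankrd2 and Csrp3, background 7.51%) and 0 as higher (background 5.06%). The median log2 fold change of the 11 genes was 0.05. Car3 (ratios of 1.62 and 1.36), Ldhb (1.41 and 1.40) and Fabp3 (1.22 and 1.35) were higher in both crossed pairs. Mybpc1 (0.667 and 0.640), Mb (0.600 and 0.641) and Actn2 (0.459 and 0.512) were lower in both. The joined locus of Myl6b, a slow essential light chain, and Myl6, a light chain of most cells, whose values are not separated, had 184 FPKM in Old 1, 92.8 FPKM in Old 2, 92.4 FPKM in Young 1 and 172 FPKM in Young 2. Myoz2, a calsarcin of slow fibers and heart, had 81.5 FPKM, 39.3 FPKM, 38.8 FPKM and 74.0 FPKM in that order. Both loci were nearly level within the crossed pairs, as Casq2 was. The 2 genes at least 1 lower were the stretch-responsive Z-disc and titin-linked genes Csrp3, with ratios of 0.406 and 0.362, and Ankrd2, with ratios of 0.459 and 0.403.

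Of 16 fast-fiber counterparts, 14 had a value and 13 were tested, with a median log2 fold change of 0.03. By limma 1 was past the threshold in each direction, Myh1 as higher (background 0.175%) and Tnnt3 as lower (background 0.127%). Both were listed at 0 in the samples of 1 age. None of the other 11 tested genes, the abundant Tnnc2, Tnni2 and Mylpf among them, reached a difference of 1 in the same direction in both crossed pairs.

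Other listed genes of calcium release and reuptake were closer to level in the values as deposited. Of 22 further calcium-handling genes, 21 had a value and were tested. By limma 0 were past the threshold as higher (background 0.175%) or lower (background 0.127%). At an unadjusted p under 0.05 there were 0, against 35 higher and 42 lower of the 10266 tested genes. In both crossed pairs 0 were at least 1 higher (background 0.857%) and 0 at least 1 lower (background 1.58%). Counts of 0 are near these backgrounds, so nothing is read from them. The log2 fold changes of the 21 genes ran from -0.84 to 1.24, with a median of 0.23. After median scaling, genes past the threshold included Cacng1, Jph1 and Mrln as higher (background 5.06%) and Cacnb1, Sypl2 and Orai1 as lower (background 7.51%). In each direction this was a larger part of the 21 than of all tested genes, and whether the list differs from the background was not tested. The highest was Trdn, which encodes triadin, a protein that ties calsequestrin to the release channel, with 555 FPKM in Old 1, 204 FPKM in Old 2, 117 FPKM in Young 1 and 172 FPKM in Young 2. Triadin was higher in both old samples, with ratios of 3.23 and 1.75. Mrln, which encodes the SERCA-inhibiting micropeptide myoregulin and is listed under an older name, had ratios of 1.93 and 2.08.

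Regulators of the slow program were largely level. Of 24 such genes, 22 had a value and 21 were tested, with a median log2 fold change of -0.08. By limma 1 gene was past the threshold as higher (background 0.175%) and 0 as lower (background 0.127%). That gene was Mef2c, a transcription factor that acts with calcineurin on slow genes. It had 213 FPKM in Old 1, 96.7 FPKM in Old 2 and 45.9 FPKM in Young 2 and was listed at 0 in Young 1. Its call therefore rests in part on a value of 0, and it was not past the threshold after median scaling, where Ppp3ca and Hdac4 were past it as higher (background 5.06%) and Ppargc1a, Ppard and Vgll2 as lower (background 7.51%). The coactivator gene Ppargc1a had 9.47 FPKM in Old 1, 4.73 FPKM in Old 2, 8.34 FPKM in Young 1 and 15.8 FPKM in Young 2. Sox6, a repressor of slow genes, was held for Old 2 (15.7 FPKM) and Young 1 (16.4 FPKM) and was not analysed in the other pair.

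**Figure D4:**
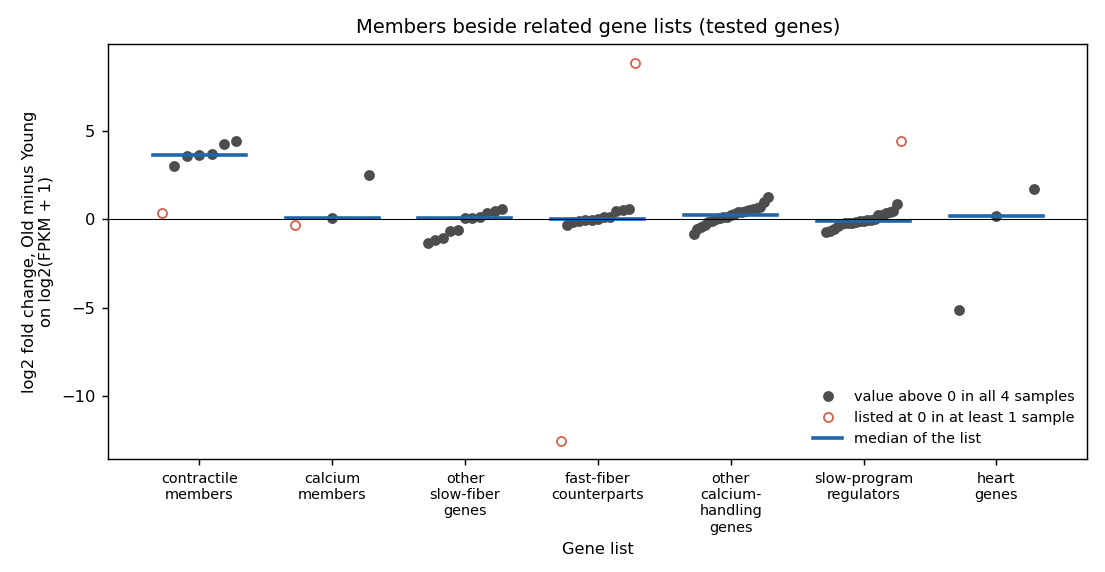
Log2 fold change, Old minus Young, on the log2(FPKM + 1) scale for the tested genes of each list, with the list median as a blue line and open symbols for genes listed at 0 in at least 1 sample. Apart from genes listed at 0, the contractile genes lie between 3.00 and 4.39 while the medians of the related lists lie between -0.08 and 0.23.

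Because most of these genes are also heart genes, the genes that define heart muscle were read beside them. Myl7 and Nppb were listed at 0 in all 4 samples. Myh6, a heavy chain of the heart, had 0.691 FPKM in Old 1, 0.201 FPKM in Old 2, 0.536 FPKM in Young 1 and 1.10 FPKM in Young 2. Tnni3 and Nppa did not exceed 0.590 FPKM in any sample, and Tnnt2, the heart troponin T that immature skeletal muscle also makes, had 2.47 FPKM in Old 1, 0.657 FPKM in Old 2, 0.793 FPKM in Young 1 and 1.43 FPKM in Young 2. Readings of the 5 defining genes (Myh6, Nppa, Nppb, Tnni3 and Myl7) thus ran from 0 to 1.10 FPKM, and a listing at 0 does not show that a gene was not expressed. The part of heart genes in the slow-gene values was not tested. Of 13 heart genes, 12 had a value and 3 were tested. Myl4, an atrial and embryonic light chain, had 25.6 FPKM in Old 1, 5.68 FPKM in Old 2, 0.610 FPKM in Young 1 and 9.32 FPKM in Young 2. Actc1, the cardiac actin, was lower in Old and past the limma threshold (background 0.127%). It had 372 FPKM and 2397 FPKM in Young 1 and Young 2 and 35.8 FPKM and 18.3 FPKM in Old 1 and Old 2.

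Markers of other cells were mixed: most sums were near level or lower in Old, while adipocyte markers other than Fabp4 and the alpha-hemoglobin locus were higher in Old. The 5 smooth muscle markers with a value summed to 81.5 FPKM in Old 1, 41.0 FPKM in Old 2, 49.5 FPKM in Young 1 and 94.9 FPKM in Young 2. Sums of the 3 endothelial markers were 43.4, 22.4, 25.6 and 48.7 FPKM, and those of the 4 Schwann cell markers were 26.9, 12.3, 17.4 and 36.6 FPKM in the same order. The 5 adipocyte markers gave 328, 167, 184 and 354 FPKM, and the 5 macrophage and leukocyte markers gave 18.0, 6.995, 11.5 and 27.9 FPKM. None of these 5 sums was higher in Old in both crossed pairs, and none of their tested markers was at least 1 higher in log2(FPKM + 1) in both pairs. The adipocyte sum was mostly Fabp4, with 313 FPKM in Old 1 and ratios of 0.906 and 0.899 in the crossed pairs. The other 4 adipocyte markers were low but higher in Old in both pairs, with ratios of 1.97 and 2.17 for Adipoq, 1.36 and 1.48 for Plin1, 1.35 and 1.29 for Cidec, and 3.17 and 6.45 for Lep, and their part in the slow-gene values was not tested. The 6 fibroblast and tendon markers gave 79.2, 33.2, 74.9 and 158 FPKM, with Col1a1 (ratios of 0.230 and 0.235) and Col3a1 (0.340 and 0.367) lower in Old. Of the general skeletal muscle markers, 9 of 10 had a value, and their sum was 21188, 4500, 5223 and 24926 FPKM. The alpha-hemoglobin locus (Hba-a1 and Hba-a2), a mark of red blood cells, had 607 FPKM in Old 1, 277 FPKM in Old 2, 39.5 FPKM in Young 1 and 88.6 FPKM in Young 2, with ratios of 6.85 and 7.02, and its part in the slow-gene values was not tested.

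The genes whose pattern lay nearest to the contractile members were found by Euclidean distance over the 4 samples. The distance used log2(FPKM + 1) less its mean over the samples, against the mean profile of the 7 contractile genes, over the same 7228 genes. The nearest were the Hba-a1 and Hba-a2 locus (0.599), Hoxd8 (0.796), Pla2g7 (0.830), Zmynd17 (0.883) and Fbxo32 (1.11). The 6 contractile members themselves lay between 0.361 and 1.16 from that mean. Zmynd17, now named Mss51, encodes a muscle protein linked to mitochondrial metabolism, and it had 424 FPKM in Old 1, 146 FPKM in Old 2, 8.39 FPKM in Young 1 and 20.1 FPKM in Young 2. Fbxo32 encodes the muscle ubiquitin ligase atrogin-1.

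A further comparison did not use the difference between ages. Within an age, each member's ratio between the samples was read against other genes of a like level, those within a factor of 1.5 of the member's geometric mean. The log2 ratio of Old 1 to Old 2 was 1.89 for Myh7, where the middle 90% of 604 such genes lay between 0.93 and 1.26. It lay between 1.36 (Tnni1) and 1.55 (Tpm3) for the other 5 contractile genes and was 1.502 for Atp2a2, where the medians of genes at a like level lay between 0.98 and 1.03. Of 8 members with a value above 0 in both samples, 6 lay above the 95th percentile of those genes, namely Myh7, Tnnt1, Tnnc1, Tnni1, Tpm3 and Atp2a2. Casq2, with 0.94, lay inside their range. The old samples thus differed from each other in the slow genes by more than in most genes of that level.

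In the young samples fewer members lay outside the range of genes at a like level, and that range was wider. The log2 ratio of Young 2 to Young 1 was 1.31 for Myh7, lay between 0.84 (Tpm3) and 1.49 (Myl2) for the other 5 contractile genes, and was near 1 for Atp2a2 (1.00) and Casq2 (0.96). Of the 8 members, 1 (Myl2) lay above the 95th percentile of genes at a like level and 1 (Tpm3) lay below the 5th. That 95th percentile ran from 1.42 to 2.44 over the members in the young samples and from 1.21 to 1.49 in the old samples. Tnni1 (1.42) and Tnnc1 (1.38) differed between the young samples by about as much as between the old ones (1.36 and 1.47). With 2 samples per age the spread between mice cannot be estimated from these values, and whether the old samples differ more than the young ones was not tested.

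**Figure D5:**
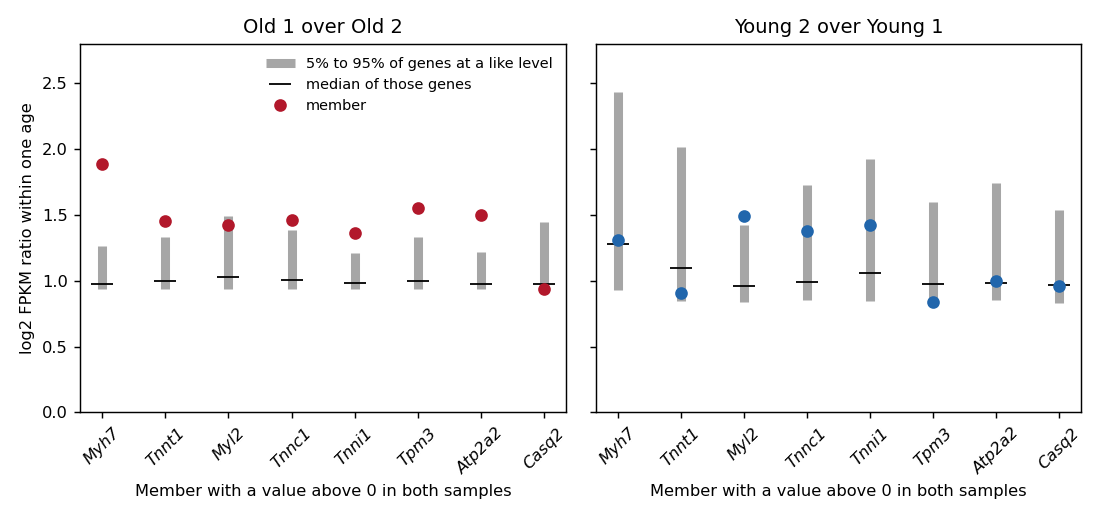
Log2 FPKM ratio of Old 1 to Old 2 (left) and of Young 2 to Young 1 (right) for the 8 members above 0 in both samples, beside the median (black dash) and the 5% to 95% range (gray bar) of other genes at a like level. In the old samples Myh7, Tnnt1, Tnnc1, Tnni1, Tpm3 and Atp2a2 lie above their bars, and in the young samples Myl2 lies above and Tpm3 below.

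The members lie on 7 chromosomes, and the medians of their neighbors were at or below 0. Tested genes centered within 250000 bases had a median log2 fold change of -0.19 around Myh7 (11 genes), -0.42 around Tnnt1 (7 genes), -0.05 around Myl2 (4 genes), -0.04 around Tnnc1 (14 genes), -0.17 around Tnni1 (5 genes), -0.10 around Tpm3 (13 genes), -0.08 around Myh7b (12 genes), -0.01 around Atp2a2 (9 genes) and -0.80 around Pln (2 genes, both of its own locus). The highest neighbor of Myh7 was D830015G02Rik, at 2.09. Myl2 and Atp2a2 are 346658 bases apart on chromosome 5, and the 9 tested genes between them had log2 fold changes from -0.40 to 0.58. No tested gene was centered within this distance of Casq2.

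The upstream sequences of the slow genes were read because 6 of the contractile genes were higher in old muscle together. Promoter sequences (RefSeq, GRCm38.p6) were matched for 9 of the 10 members, and for 7 a listed start lay within 100 bases of the end of the deposited locus. The 250 bases before the start are shown for the 4 contractile genes whose start matched the deposited locus exactly, and for Casq2, which was level between ages. Capitals mark matches, on either strand, to the E-box CANNTG, the MCAT element CATTCC, the TATA box TATAAA and the MEF2 consensus. A CArG box was also searched and was found in 0 of the 7.
Myh7, chr14:54994550-54994799, minus strand: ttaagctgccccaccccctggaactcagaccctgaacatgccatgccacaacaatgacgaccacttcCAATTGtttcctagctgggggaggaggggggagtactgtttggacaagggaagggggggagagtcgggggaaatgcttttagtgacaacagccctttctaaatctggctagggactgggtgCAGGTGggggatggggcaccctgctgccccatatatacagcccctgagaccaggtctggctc
Tnnt1, chr7:4515976-4516225, minus strand: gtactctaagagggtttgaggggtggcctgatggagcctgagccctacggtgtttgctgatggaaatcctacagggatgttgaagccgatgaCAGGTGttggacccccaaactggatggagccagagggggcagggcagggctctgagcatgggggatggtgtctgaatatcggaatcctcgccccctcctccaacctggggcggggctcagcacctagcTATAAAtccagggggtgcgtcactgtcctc
Tnnc1, chr14:31208062-31208311, plus strand: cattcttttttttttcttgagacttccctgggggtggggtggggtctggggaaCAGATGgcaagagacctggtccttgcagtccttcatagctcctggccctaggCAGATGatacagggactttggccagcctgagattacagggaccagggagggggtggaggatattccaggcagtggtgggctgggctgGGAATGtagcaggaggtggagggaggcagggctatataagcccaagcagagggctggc
Tnni1, chr1:135799171-135799420, plus strand: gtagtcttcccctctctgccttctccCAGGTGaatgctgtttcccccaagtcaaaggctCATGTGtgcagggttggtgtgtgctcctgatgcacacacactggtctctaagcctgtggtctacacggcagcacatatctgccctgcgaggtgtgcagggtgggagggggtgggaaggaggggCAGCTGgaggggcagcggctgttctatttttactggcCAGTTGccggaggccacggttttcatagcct
Casq2, chr3:102086165-102086414, plus strand: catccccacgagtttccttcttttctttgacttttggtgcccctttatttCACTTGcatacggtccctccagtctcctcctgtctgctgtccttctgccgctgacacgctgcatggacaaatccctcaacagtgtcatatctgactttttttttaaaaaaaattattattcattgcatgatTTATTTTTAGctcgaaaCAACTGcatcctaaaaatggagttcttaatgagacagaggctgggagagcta

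All 7 of these promoters, those of Tpm3 and Myh7b included, held at least 1 E-box, against 66.2% of 32851 promoters of the same length. The E-box is a type of site that the myogenic MyoD family binds, among other factors. Tnni1 held 4 E-boxes, Tnnc1, Myh7 and the level gene Casq2 each held 2, and Tnnt1, Tpm3 and Myh7b each held 1, against a mean of 1.16 over all promoters. Other motifs were scattered. The MCAT element was found only in Tnnc1, at bases -58 to -53 from the start (background 12.6%). The exact letters TATAAA were found only in Tnnt1, at -30 to -25 (background 12.4%). Other forms of the TATA box were not searched, so no absence of such a box is read for the other genes. The MEF2 consensus was found only in Casq2, at -69 to -60 (background 2.92%), and a CArG box is in 1.47% of all promoters. These matches describe letters in a short window and do not show binding.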

How the data were processed

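According to the methods, reads were trimmed and freed of PCR duplicates with in-house programs and aligned to mm10 with TopHat2 (version 2.0.10 in the submitters' processing notes). The authors then estimated FPKM for each locus and sample with Cufflinks, and these FPKM values are what they deposited. Their notes also name Cuffdiff (version 2.1.1). How far duplicate removal lowered abundant genes was not tested.

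The tables used here end within chromosome 7 (Old 1, Young 2) or 8 (Old 2, Young 1), in an order in which chromosomes 10 to 19 precede 2, each with 1 incomplete last line that was dropped. Loci past those points were not analysed here. Values were held in every sample for 20605 loci, which were kept, and 542 others were not used, and loci of 1 symbol were summed. Locus starts were converted to 1-based positions. Genes that reached 1 FPKM in 2 or more samples were compared with limma 3.58.1 in R 4.3.3 on log2(FPKM + 1), without scaling (trend, two-sided, Benjamini-Hochberg, adjusted p under 0.05), 2 samples against 2. The fit was tested on simulated data with and without a factor between samples of an age. Recovery of the changed genes was required only without that factor, so it was not required for the factor seen here. Ratios, shares, ranks and motif counts are descriptions, computed with Python 3.11.15, pandas 2.3.3 and numpy 2.4.6, and plotted with matplotlib 3.10.9.

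The members, the gene lists and the crossed pairs were chosen with earlier results of these data known. Named genes are the members, their fast forms, listed genes past the threshold or at least 2-fold changed in both crossed pairs, defining heart genes, the 5 genes nearest in pattern and the microRNAs within members. Myl3 and Fhl1 are named as listed genes without a value. Other genes were named after their values were seen: Ostn and the rest of the 4-fold genes, Myl6b, Tnnt2, adipocyte markers, Myoz2, Car3, Ldhb, Fabp3, Mybpc1, Mb, Trdn, Mrln, Ppargc1a, Sox6, genes called after median scaling, and genes that share or flank a locus. Alternatives were another pseudocount, filters, median scaling, quantile normalization, the highest locus per symbol, whole-symbol matching, the replicate number or the crossed pairs as a block, no trend, and each sample left out. The result of 1 listed calcium-handling gene is not reported here.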

Additional observations from a re-analysis of the deposited data

How the results depend on the processing

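The direction of Myh7, Tnnt1, Myl2, Tnnc1, Tnni1, Tpm3 and Atp2a2 was the same under every alternative run, samples left out included. These genes were chosen with that direction known, so this carries no weight of its own. Filters, the highest locus, whole-symbol matching, blocks and the trend cannot change a fold change of these genes. Leaving out a sample cannot reverse it, since both old samples lay above both young ones. The median of the contractile genes stayed between 3.65 and 3.77 with all 4 samples and between 2.92 and 4.38 with 1 left out. Counts past the limma threshold depended on the setting, and the causes were not tested. With the values as deposited they were 18 genes higher, 13 lower and 5 members. With at least 1 FPKM in all 4 samples they were 4, 2 and 2 (Myh7 and Tnnt1). That filter leaves out Pln and Myh7b, which by construction moved the calcium-handling median to 1.29 and its distance from the contractile median to 2.37. Median scaling gave 519 higher and 771 lower genes, quantile normalization gave 119 and 188, and both called 7 members. The crossed pairs as a block gave 2812 and 3374 genes and 8 members, Casq2 among them at 0.09. Without a trend 15 higher genes, 12 lower genes and 2 members were called. Leaving out any of Old 1, Old 2, Young 1 or Young 2, where the lone sample of an age is assumed to vary like the other age, gave 2 to 6 higher genes, 3 to 10 lower genes, 0 called members (0 to 0), and a calcium-handling median from -0.37 to 0.95. The replicate block, which pairs same-numbered samples, gave 2 higher genes, 3 lower genes and 0 members. Deviations from the mean of the age correlated at -0.885 across genes between same-numbered samples and at 0.885 between crossed ones. With 2 samples per age the second value is the mirror of the first. The factor that sets Old 1 and Young 2 apart enters both. These values therefore cannot tell whether same-numbered samples share more than a number. FPKM holds no depth, so values of 0 and those under a few FPKM cannot be given a counting error.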

Other observations

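The mean profile of Atp2a2, Casq2 and Pln was matched most closely by Lsm5 (distance 0.0961), Llph (0.124), 2310039L15Rik (0.129), Mfsd4 (0.144) and Gm5860 (0.151). After each sample was scaled to the same median, 2 of these 5 genes remained among the nearest, while all 5 nearest to the contractile genes remained. Atp2a2 and Casq2 themselves lay between 0.859 and 1.79 from that mean, farther than any of the 5.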
